A study of Mus musculus with 28 samples.

Results

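Chemokines are small secreted proteins that direct the movement of leukocytes, and their receptors are G protein-coupled receptors on the cells that respond. The genes of this family were chosen by symbol, as Ccl, Cxcl, Cx3cl1 and Xcl1 for ligands, Ccr, Cxcr, Cx3cr1 and Xcr1 for receptors, and Ackr for atypical receptors, which bind and remove or relocate chemokines without signalling through G proteins. In the 3 deposited tables together, 62 such genes were found, comprising 39 ligands (24 CC, 13 CXC and 2 others), 19 receptors and 4 atypical receptors. The liver table of 17752 features held 59 of them, and the 2 macrophage tables of 56748 and 21959 features held 61 each. Pf4, Ppbp and Ccrl2 belong to the same family by function but carry other symbols, and their values are given apart.

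The livers came from male mice, 8 weeks old, on a diet deficient in methionine and choline (MCD) for 4 weeks, which serves as a model of steatohepatitis. There were 4 groups of 4 livers. Lyz2-Cre mice carry the Cre recombinase under the Lyz2 promoter, which is active in macrophages, monocytes and neutrophils, and served as controls. NFATc3-MKO livers were labelled as a macrophage knockout of NFATc3, a calcineurin-activated transcription factor, ASK1-MKO livers as a macrophage knockout of ASK1, a stress-activated kinase encoded by Map3k5, and MDKO livers as a double knockout of NFATc3 and ASK1, with no cell type in that label. Bone marrow-derived macrophages (BMDMs) were grown for 7 days in medium of which 30% was conditioned by L929 fibroblasts, which secrete the macrophage growth factor CSF1, and the labels name no further treatment. Macrophages labelled as knock-ins of NFATc3 (NFATc3-MKI) or ASK1 (ASK1-MKI) had 3 cultures each, and each had its own 3 Lyz2-Cre control cultures. All livers thus came from mice on the diet, and no liver of a mouse on a normal diet was analysed here. The labels do not say whether livers or cultures of a group came from separate mice, so p-values measure the spread between these samples, which may be technical.

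In the liver, CCL2 (MCP-1) recruits monocytes that carry CCR2, the CXCR2 ligands CXCL1, CXCL2, CXCL3 and CXCL5 recruit neutrophils, and CXCL9, CXCL10 and CXCL11 attract activated T cells through CXCR3. CCL3 and CCL5 act on CCR1 among other receptors, and CX3CL1 on CX3CR1, which patrolling monocytes and many macrophages carry. CXCL12 and its receptor CXCR4 retain cells in tissue, and CCR7 guides dendritic cells towards its ligands CCL19 and CCL21 in lymphoid tissue.

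The CXC ligand genes shown here lie on mouse chromosome 5, and many CC ligand genes lie on chromosome 11. The 250 bases before the start are shown for 6 genes. They are the neighbours Cxcl1, Cxcl2 and Cxcl3, which fell together in ASK1-MKI cultures, the neighbours Cxcl9 and Cxcl10, which moved in opposite directions there, and Ccl9, which was higher in both knock-in groups. The sequences are from RefSeq (GRCm38.p6), read 5′ to 3′ on the strand of the gene, and capitals mark matches on either strand to a κB-type motif (GGGNNTTTCC), an interferon-response-type motif (GAAANNGAAA) or an AP-1-type motif (TGANTCA).
Cxcl1, chr5:90890995-90891244 (+ strand): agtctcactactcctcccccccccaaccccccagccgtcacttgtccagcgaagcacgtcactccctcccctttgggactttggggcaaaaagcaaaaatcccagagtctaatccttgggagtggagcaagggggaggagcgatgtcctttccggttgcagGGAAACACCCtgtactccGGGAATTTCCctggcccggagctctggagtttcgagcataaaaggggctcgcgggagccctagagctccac
Cxcl2, chr5:90903649-90903898 (+ strand): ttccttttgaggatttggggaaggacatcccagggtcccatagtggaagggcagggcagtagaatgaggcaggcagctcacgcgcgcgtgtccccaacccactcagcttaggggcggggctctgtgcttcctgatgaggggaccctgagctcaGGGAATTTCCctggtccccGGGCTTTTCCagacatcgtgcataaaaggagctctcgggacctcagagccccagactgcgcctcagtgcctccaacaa
Cxcl3, chr5:90785851-90786100 (+ strand): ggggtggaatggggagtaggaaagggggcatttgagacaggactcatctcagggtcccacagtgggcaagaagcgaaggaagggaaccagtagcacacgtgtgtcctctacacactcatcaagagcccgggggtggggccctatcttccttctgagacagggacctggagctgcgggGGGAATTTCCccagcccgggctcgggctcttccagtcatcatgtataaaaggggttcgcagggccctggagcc
Cxcl9, chr5:92328080-92328329 (- strand): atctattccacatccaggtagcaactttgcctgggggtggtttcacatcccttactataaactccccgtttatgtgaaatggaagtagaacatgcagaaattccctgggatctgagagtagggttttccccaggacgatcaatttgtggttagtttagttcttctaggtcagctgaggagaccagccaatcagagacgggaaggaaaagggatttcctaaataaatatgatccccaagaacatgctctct
Cxcl10, chr5:92348890-92349139 (- strand): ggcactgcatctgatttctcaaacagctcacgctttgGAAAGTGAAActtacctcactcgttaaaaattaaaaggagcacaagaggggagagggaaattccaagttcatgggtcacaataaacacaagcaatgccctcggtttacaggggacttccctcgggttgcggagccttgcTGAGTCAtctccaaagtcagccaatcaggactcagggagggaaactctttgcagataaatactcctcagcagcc
Ccl9, chr11:83578637-83578886 (- strand): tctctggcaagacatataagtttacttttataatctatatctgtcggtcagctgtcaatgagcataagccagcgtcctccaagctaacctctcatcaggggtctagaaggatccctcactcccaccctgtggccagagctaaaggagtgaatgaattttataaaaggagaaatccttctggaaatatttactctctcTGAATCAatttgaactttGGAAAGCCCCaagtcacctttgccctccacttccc

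Promoter sequences were found for 47 of the 62 genes, and matches were counted in the 250 bases before the start. A κB-type match was present in 6 of these 47, namely Ccl20, Ccl9, Ccr3, Cxcl1, Cxcl2 and Cxcl3, and in 378 of 27025 promoters in the table (1.4%). Cxcl1 and Cxcl2, which encode neutrophil attractants, each show a pair of such matches in the windows printed, and the related Cxcl3 shows 1. The interferon-response-type motif was found in 3 of 47, namely Ccl19, Cxcl10 and Cxcl14, against 3.04% of all promoters, and the AP-1-type motif in 4 of 47, namely Ccl9, Ccr3, Ccr4 and Cxcl10, against 6.87%. Cxcl9 and Cxcl10, neighbours with the same receptor, differ in these windows in that the Cxcl9 window holds none of the 3 motifs as written. The NFAT core GGAAA was found in 32 of 47 but also in 55.58% of all promoters, and it overlaps the κB-type motif, whose reverse strand contains it. A match describes the letters only.

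Total counts ran from 8912117 (MDKO replicate 3) to 30834547 in the livers, from 7693464 to 9398163 in the NFATc3-MKI set and from 16051951 to 18728508 in that of ASK1-MKI. RNA of the targeted genes did not clearly follow the labels. In livers Nfatc3 stood at 28.3 ± 5.78 CPM (counts scaled to the size of the library, SD, n = 4) in NFATc3-MKO and 36.3 ± 3.94 in Lyz2-Cre (edgeR adjusted p = 0.12), Map3k5 was higher in ASK1-MKO (46.3 ± 6.12 against 30.9 ± 2.21, edgeR adjusted p = 0.0262). In MDKO livers Nfatc3 (36.6 ± 4.6 CPM) and Map3k5 (30.6 ± 2.15 CPM) stood near their Lyz2-Cre levels. These livers are whole tissue, so a loss in macrophages alone may not show. In the cultures Nfatc3 was lower in NFATc3-MKI (81.1 against 97.5 CPM, edgeR adjusted p = 0.0371) and Map3k5 lower in ASK1-MKI (26.9 against 30.1 CPM, 0.0266). Every group below is therefore a group as labelled. The macrophage label was checked with marker genes. Both culture sets held Csf1r and Cd68 RNA, but Mertk stood at 0.0832 and 0.0757 CPM in the control and NFATc3-MKI cultures of the NFATc3 set against 209 and 295 CPM in the ASK1 set, and Adgre1, which encodes F4/80, at 31.3 and 33.9 against 2692 and 3309 CPM. The 6 macrophage markers summed to 1430 to 1974 CPM in the NFATc3 set and to 33090 to 37330 CPM in the ASK1 set. The NFATc3 set thus held Mertk near 0, and its levels are not set against those of the ASK1 set by any test.

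Detection differed between livers and cultures. At a group mean of at least 1 CPM, 23 of 59 genes were present in Lyz2-Cre livers, 27 in NFATc3-MKO, 19 in ASK1-MKO and 22 in MDKO. Of 61 genes, 15 were present in the control for NFATc3-MKI, 20 in NFATc3-MKI, 25 in the control for ASK1-MKI and 23 in ASK1-MKI. No count at all was found for 1 to 5 genes per liver group, for 27 and 23 in the NFATc3 set and for 12 and 14 in the ASK1 set, where the limit for a count of 0 (3 counts over the group) was 0.0267 to 0.0381 CPM in livers, 0.122 and 0.114 CPM in the NFATc3 set and 0.0556 and 0.06 CPM in the ASK1 set. These limits cover counting error only. The sets were of unequal depth, so a count of 0 limits a level less tightly in the NFATc3 set.

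Which ligand dominated depended on the source of the RNA. Per kilobase of exon, the highest chemokine gene in liver was Cxcl12, at a mean level of 43.1 CPM per kilobase (352.5 CPM), followed by Ccl9 (24 CPM per kilobase), Ccl6 (11.9), Cxcl9 (6.48), Cxcl16 (4.4), Cxcl10 (4.06), Ccl2 (2.71) and Ccl5 (2.48). Cxcl12 made up 59.4% to 67.6% of the summed CPM of the family in the 4 liver groups. It had no count in any culture of the NFATc3 set and stood at 0.0375 and 0.241 CPM in the control and ASK1-MKI cultures of the other set. In the NFATc3 set Ccl3, which encodes MIP-1α, was highest at 3124 CPM per kilobase (2393 CPM), followed by Ccl4 at 515.7, Ccl9 at 262.4, Cxcl2 at 116.7 and Ccl5 at 62.7. In the ASK1 set Ccl5, which encodes RANTES, led at 1174 CPM per kilobase (1127 CPM), followed by the receptor gene Cxcr4 at 94.7, Cxcl16 at 75.8, Ccl6 at 68.3 and Ccl9 at 63.4. Ccl9 was the only gene among the first 5 by this measure in all 3 tables.

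**Figure D1:**
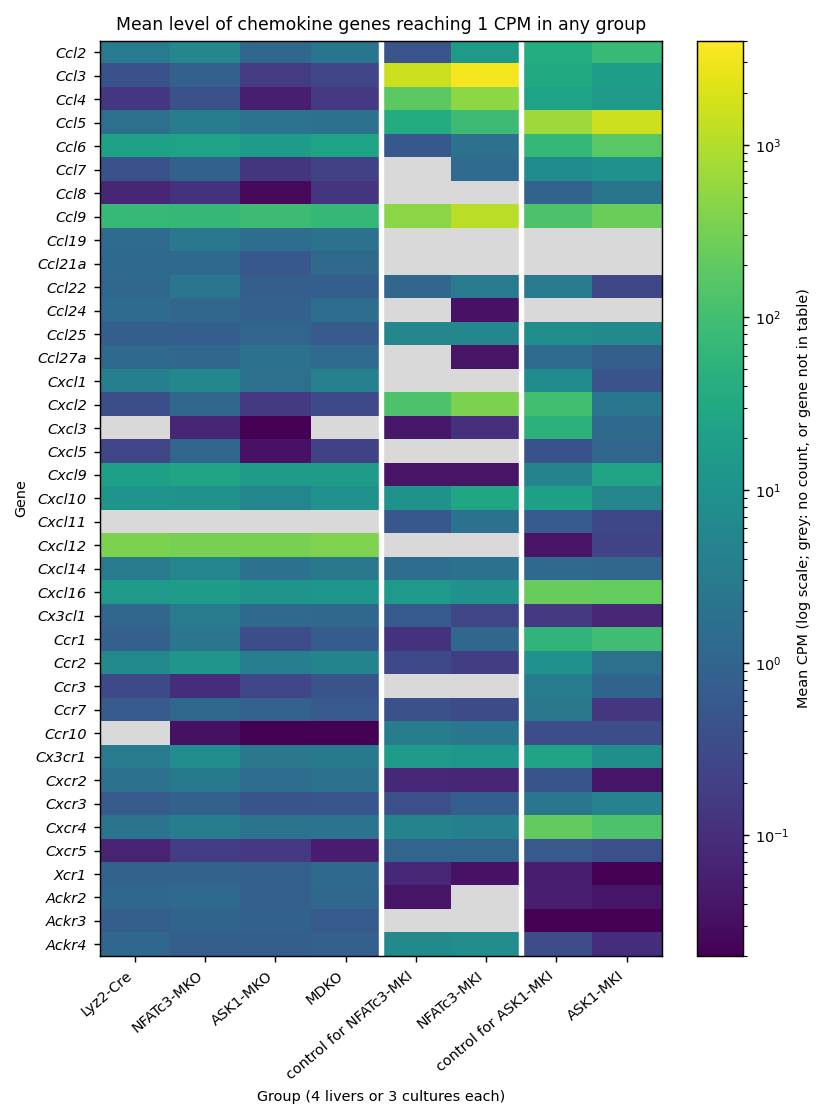
Mean level of 39 chemokine genes that reached 1 CPM in any group, in CPM on a logarithmic colour scale, for the 4 liver groups (n = 4 each) and the 4 culture groups (n = 3 each), with grey for no count or a gene not in the table. Cxcl12 is bright in all liver groups and near or at 0 in the cultures, whereas Ccl3 is brightest in the NFATc3 set and Ccl5 in the ASK1 set.

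The lymphoid ligand Ccl19 was the single gene at 1 CPM or more in every liver group and under 0.1 CPM in every culture group, with liver means of 1.41 to 2.69 CPM and no count in any culture. No gene showed the reverse. Receptor levels differed between the tables too. Ccr2 stood at 3.74 to 11.6 CPM in the liver groups, at 0.289 and 0.191 CPM in the control and NFATc3-MKI cultures and at 9.78 and 1.8 CPM in the control and ASK1-MKI cultures. Cx3cr1 was present in all 8 groups, from 2.5 to 25.5 CPM. Of the atypical receptors, Ackr4, a scavenger of CCL19, CCL21 and CCL25, was the only one above 1 CPM in a culture (7.03 and 7.89 CPM in the NFATc3 set), and Ackr1 had no count in any culture.

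Livers labelled NFATc3-MKO were first compared with Lyz2-Cre livers. After a filter on low counts 39 of the 59 genes could be tested. The other 20 stood at 0.431 CPM or less in every liver group. Of the 39, 1 was called higher and none lower at an edgeR adjusted p under 0.05, where 8.45% of all 13309 tested genes were called in this comparison. That gene was Cxcl14, a chemokine expressed by epithelial and stromal cells. Cxcl14 stood at 2.77, 7.64, 6.88 and 4.7 CPM in NFATc3-MKO replicates 1 to 4 and at 2.65, 3.31, 3.51 and 2.27 CPM in Lyz2-Cre replicates 1 to 4. Of the NFATc3-MKO livers 3 lay above all controls and replicate 1 within them. The log2 fold change was 0.90 ± 0.25 (SE, edgeR adjusted p = 0.0342). It no longer passed when Lyz2-Cre replicate 1, 3 or 4, or replicate 2 or 3 of NFATc3-MKO, was left out (edgeR adjusted p = 0.0705 to 0.107) and with only these 2 groups in the fit (0.133).

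Cx3cl1 was next by p, followed by Ccr3. Cx3cl1, a ligand that is made as a membrane-bound protein, stood at 0.901, 4.8, 3.55 and 3.88 CPM in NFATc3-MKO livers and at 1.09, 1.83, 0.748 and 0.928 CPM in Lyz2-Cre livers (log2 difference 1.50 ± 0.50, edgeR adjusted p = 0.072). The eosinophil receptor gene Ccr3 stood at 0.0322, 0.114, 0.222 and 0.0356 CPM in NFATc3-MKO and at 0.201, 0.17, 0.468 and 0.361 CPM in Lyz2-Cre livers (log2 difference −1.54 ± 0.60, edgeR adjusted p = 0.114), and the groups overlapped. The receptor of CX3CL1, Cx3cr1, stood at 1.67, 14.2, 7.66 and 8.73 CPM against 1.21, 7.39, 1.78 and 2.58 CPM (log2 difference 1.31 ± 0.55, edgeR adjusted p = 0.141). For Cx3cl1 and Cx3cr1 NFATc3-MKO replicate 1 lay among the controls and the other 3 were higher, but neither passed the threshold with all livers. Cx3cl1 did pass without Lyz2-Cre replicate 2 (1.83, edgeR adjusted p = 0.0486) or NFATc3-MKO replicate 1 (1.82, 0.0168) and with DESeq2 (1.51, DESeq2 adjusted p = 0.0301). The median log2 difference of the 39 genes was 0.35, and that of all tested genes was 0.03. Of the 39, 26 had a positive difference, and 7 had an unadjusted p under 0.05, as did 26.6% of all tested genes. Markers of other cells moved in the same comparison. The bile duct markers Epcam and Tspan8, the neutrophil markers S100a8 and S100a9, Spp1 of the lipid-associated macrophage list and the plasma cell gene Jchain were higher in NFATc3-MKO, and the Kupffer cell markers C6 and Clec4f, the endothelial markers Clec4g and Fcgr2b and the hepatocyte gene Hnf4a were lower. The 4 bile duct markers summed to 6.08 to 29.4 CPM in NFATc3-MKO and 6.17 to 9.39 CPM in Lyz2-Cre livers, and the 6 Kupffer cell markers to 174 to 227 and 199 to 400.5 CPM. Their part in the Cxcl14 difference was not tested.

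In livers labelled ASK1-MKO against the same controls no chemokine gene was called by edgeR, and none by DESeq2, where 8.46% of all tested genes were called by edgeR. The differences were mostly negative, in 30 of 39 genes, with a median of −0.38 on the log2 scale against −0.03 for all tested genes. An unadjusted p under 0.05 was found for 4, and for 23.4% of all tested genes. Among the 4 were Ackr2 (0.848 ± 0.15 against 1.26 ± 0.344 CPM, SD, n = 4), Cxcl14 and Ccl21a. The smallest edgeR adjusted p was 0.168, for Ackr2, a scavenger of inflammatory CC chemokines. Ccl21a has close copies that can share reads.

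For livers labelled MDKO against Lyz2-Cre livers, no difference in the 39 genes was detected in a fit that paired no livers. None was called by edgeR or DESeq2 and none had an unadjusted edgeR p under 0.05, and 0% of all tested genes were called. Only 0.263% of all tested genes had an unadjusted p under 0.05, fewer than chance alone would give. The fit was thus conservative here, and its lack of calls does not show equal levels. The replicate number may pair livers of these 2 groups, as given at the end. With that number as a block no chemokine gene was called either. The smallest p belonged to Cxcl13, whose product recruits B cells, with 0.231, 1.84, 0.691 and 0.541 CPM in MDKO and 0.362, 0.892, 0.14 and 0.516 CPM in Lyz2-Cre livers (log2 difference 0.81 ± 0.54, edgeR adjusted p = 0.9999). In both groups replicate 2 was the highest liver. Without MDKO replicate 2 the difference was −0.06.

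The 2 single knockouts were also compared with each other. The controls do not enter this difference, but all 16 livers set the filter, scaling and spread of the fit. With only these 2 groups in the fit fewer genes were called, as given at the end. Of 39 genes, 8 were called, 7 higher and 1 lower in NFATc3-MKO, where 12.8% of all tested genes were called, 7.15% higher and 5.61% lower. The 7 comprised 4 ligands of inflammatory recruitment, Ccl2, Ccl7, Ccl22 and Cxcl5, the ligand Cxcl14, and the receptors Ccr1 and Ccr2. Differences were positive in 34 of 39 genes, with a median of 0.64 against 0.02 for all tested genes. By role, 5 of 23 tested ligands were higher and 1 lower, and 2 of 16 tested receptors were higher.

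Cxcl14 gave the clearest difference. Its values in ASK1-MKO livers were 1.97, 2, 2.17 and 1.82 CPM, below all 4 NFATc3-MKO values given above (log2 fold change 1.46 ± 0.25, edgeR adjusted p = 0.00148). These ASK1-MKO values also lay below every Lyz2-Cre and every MDKO liver (2.42 to 2.88 CPM). The call for Cxcl14 held whichever single library was left out and in every other alternative that was run.

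Among the ligands that attract monocytes, Ccl2 stood at 1.29, 12.5, 4.18 and 5.06 CPM in NFATc3-MKO replicates 1 to 4 and at 2.15, 0.3, 0.748 and 1.58 CPM in ASK1-MKO replicates 1 to 4. Replicate 1 of NFATc3-MKO lay inside the ASK1-MKO range. The log2 fold change was 2.28 ± 0.71 (edgeR adjusted p = 0.0435), and it was 1.55 without NFATc3-MKO replicate 2 (edgeR adjusted p = 0.152). Ccl7, a related CCR2 ligand, stood at 0.0322, 2.27, 0.444 and 0.82 CPM against 0.227, 0.0333, 0.102 and 0.158 CPM (2.75 ± 0.82, edgeR adjusted p = 0.0365, and 1.69 without NFATc3-MKO replicate 2, 0.152). With the replicate number as a block the calls of Ccl2 (edgeR adjusted p = 0.056) and Ccl7 (0.0521) were lost. Ccl22, a ligand of CCR4, stood at 0.805, 4.01, 2.07 and 2.67 CPM against 0.907, 0.633, 0.306 and 1.38 CPM (1.57 ± 0.50, edgeR adjusted p = 0.0495). Cxcl5, an attractant of neutrophils, stood at 0.0322, 3.14, 0.481 and 0.713 CPM against 0.0756, 0.0333, 0 and 0.0395 CPM (4.72 ± 1.28, edgeR adjusted p = 0.0249), so that all ASK1-MKO values lay near the limit of detection. In each of these 4 genes NFATc3-MKO replicate 2 was the highest of the 8 livers and replicate 1 did not lie above the ASK1-MKO livers. All 4 calls were lost without NFATc3-MKO replicate 2 and without ASK1-MKO replicate 1, 2 or 3. Those of Ccl2, Ccl7 and Cxcl5 were also lost without ASK1-MKO replicate 4, those of Ccl2, Ccl7 and Ccl22 without NFATc3-MKO replicate 4, and those of Ccl2 and Ccl22 without NFATc3-MKO replicate 3.

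Of the receptors, Ccr1, which binds CCL3, CCL5 and CCL7, stood at 0.579, 5.64, 1.63 and 1.64 CPM in NFATc3-MKO and at 0.378, 0.333, 0.442 and 0.277 CPM in ASK1-MKO livers. No ASK1-MKO liver reached the NFATc3-MKO range (log2 fold change 2.70 ± 0.70, edgeR adjusted p = 0.0195), although the call was lost without NFATc3-MKO replicate 2 (1.80, edgeR adjusted p = 0.0742) or ASK1-MKO replicate 2 or 4 (0.0566 and 0.0511). Ccr2, the monocyte receptor for CCL2, stood at 3.35, 26.3, 7.03 and 9.76 CPM against 3.59, 4.43, 2.55 and 4.38 CPM (1.63 ± 0.51, edgeR adjusted p = 0.0455). Here too replicate 1 lay within the ASK1-MKO range. Without NFATc3-MKO replicate 2 the difference was 0.83 (edgeR adjusted p = 0.207), and the call was also lost without any 1 of the other livers except NFATc3-MKO replicate 1 (0.0649 to 0.114). Cx3cr1 just missed the threshold (1.69 ± 0.56, edgeR adjusted p = 0.0554).

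Ccl9, a CC ligand of CCR1 and the second most abundant ligand gene of the liver, was the gene called lower in NFATc3-MKO. It stood at 62.9, 69.1, 70 and 63.6 CPM in NFATc3-MKO and at 84.4, 88.7, 83.8 and 85.4 CPM in ASK1-MKO livers (log2 fold change −0.37 ± 0.12, edgeR adjusted p = 0.0478). The ASK1-MKO livers lay above every liver of the other 3 groups, as Lyz2-Cre livers ran from 57 to 79.9 CPM and MDKO livers from 58.1 to 78.4 CPM. The call was lost without any 1 of the 8 livers (edgeR adjusted p = 0.0582 to 0.102) and with only these 2 groups in the fit (0.0835), while the difference stayed between −0.35 and −0.40.

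**Figure D2:**
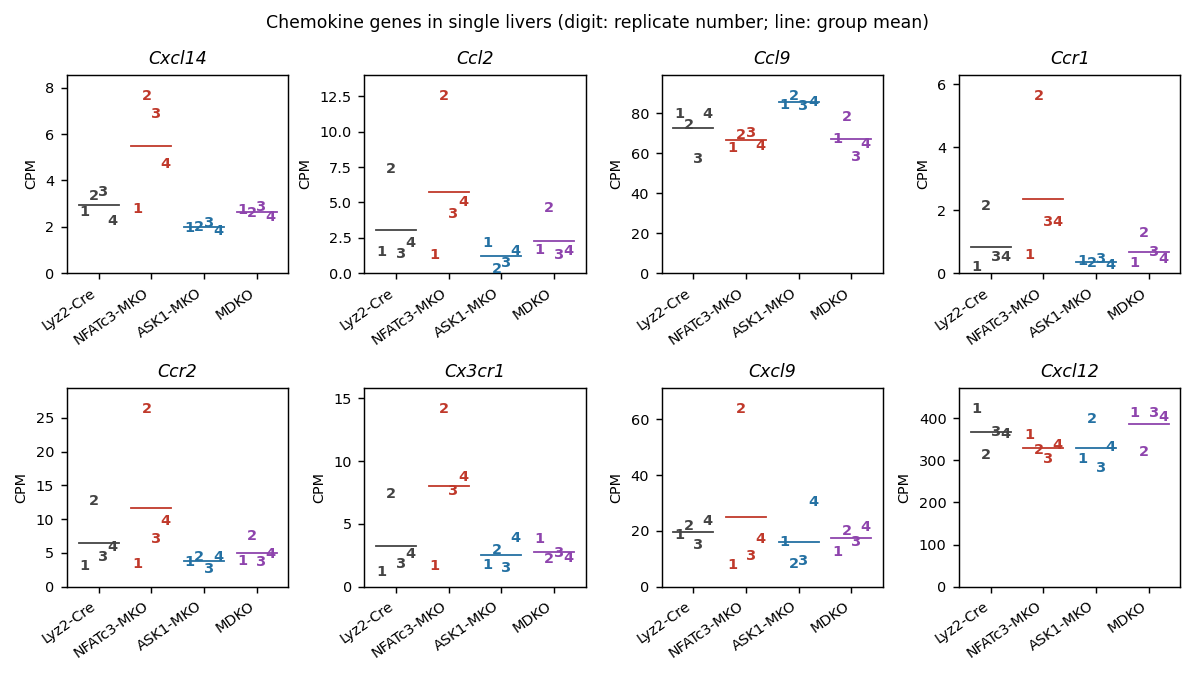
Level of 8 chemokine genes in each of the 16 livers in CPM on linear axes that start at 0, with the replicate number as the symbol and a line at the group mean (n = 4). Cxcl14 in ASK1-MKO lies below the other groups and Ccl9 above them, and NFATc3-MKO replicate 2 is the highest liver for Ccl2, Ccr1, Ccr2, Cx3cr1 and Cxcl9.

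MDKO livers were set against each single knockout, and these comparisons share livers with those above. Against NFATc3-MKO 2 of 39 genes were called, where 7.35% of all tested genes were. Cxcl14 was lower in MDKO, at 2.73, 2.62, 2.88 and 2.42 CPM (log2 fold change −1.05 ± 0.25, edgeR adjusted p = 0.0206). Ccr3, the eosinophil receptor for eotaxins, was higher, at 0.324, 0.491, 0.461 and 0.624 CPM in MDKO against 0.0322, 0.114, 0.222 and 0.0356 CPM in NFATc3-MKO livers (2.22 ± 0.58, edgeR adjusted p = 0.0277). Ccr3 values of MDKO all lay above those of NFATc3-MKO but rested on few counts, and its call was lost without MDKO replicate 2, 3 or 4 or NFATc3-MKO replicate 4 (edgeR adjusted p = 0.0548 to 0.103). The call for Cxcl14 was lost without MDKO replicate 3 or 4 or NFATc3-MKO replicate 2 or 3 (0.0512 to 0.0756) and with only these 2 groups in the fit (0.0943). With the replicate number as a block 5 genes were called. In the same comparison 3 neutrophil markers, 2 of lipid-associated macrophages and Jchain were lower in MDKO, and C6, Clec4f, Clec4g and Hnf4a were higher, and their part was not tested. Against ASK1-MKO no gene was called by edgeR and 1, Ccl9, by DESeq2 (log2 difference −0.36, DESeq2 adjusted p = 0.0241), where 7.72% of all tested genes were called by edgeR. An unadjusted p under 0.05 was found for 5 genes, among them Ccl9 (67.1 ± 8.46 against 85.6 ± 2.21 CPM), and for 22.8% of all tested genes.

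Several ligands and receptors, the abundant ligand Cxcl12 among them, gave no call by edgeR in the livers. Cxcl12 stood at 366 ± 44.3 CPM in Lyz2-Cre, 330 ± 23.7 in NFATc3-MKO, 328 ± 50.4 in ASK1-MKO and 386.5 ± 44.6 in MDKO livers. Its receptor Cxcr4 stood at 2.15 ± 1.02, 3.56 ± 1.9, 2.22 ± 0.805 and 2.06 ± 0.852 CPM in the same order. The interferon-inducible Cxcl9 stood at 19.8 ± 3.88, 24.9 ± 26.1, 16 ± 10.2 and 17.4 ± 4.08 CPM. The wide spread of Cxcl9 in NFATc3-MKO came from replicate 2 at 63.7 CPM, against 7.95 to 17 CPM in the others. Cxcl10 stood at 11 ± 3.82, 10.7 ± 9.09, 5.44 ± 2.64 and 9.39 ± 3.5 CPM. The neutrophil attractant Cxcl1 stood at 3.8 ± 4.49, 5.93 ± 3.28, 1.84 ± 1.19 and 4.07 ± 4.73 CPM, and its receptor Cxcr2 at 1.94 ± 0.925, 2.85 ± 1.17, 1.54 ± 0.538 and 1.94 ± 0.457 CPM. None of these 6 genes was called in any liver comparison. The atypical receptors Ackr1 to Ackr4 lay between 0.359 and 1.31 CPM in every group, and none was called.

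Single livers carried much of the variation. NFATc3-MKO replicate 2 was the highest of its group for 26 of the 39 tested genes and the highest of all 16 livers for 23, whereas NFATc3-MKO replicate 1 was the lowest of its group for 27. Lyz2-Cre replicate 2 was the highest of its group for 24 genes and MDKO replicate 2 for 19. In ASK1-MKO livers the highest liver varied, with 7 to 12 genes each. In the same livers the 6 macrophage markers (Adgre1, Csf1r, Cd68, Lyz2, Mertk and Fcgr1) summed to 734 CPM in NFATc3-MKO replicate 2 and 155 to 296 CPM in the other 3, to 363 CPM in Lyz2-Cre replicate 2 and 127 to 208 CPM in the other 3, and to 112 to 306 CPM in MDKO and 140 to 199 CPM in ASK1-MKO livers. In whole tissue such as these livers, fewer cells of a type and less RNA per cell cannot be told apart.

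Markers of other cells moved with the comparison of NFATc3-MKO and ASK1-MKO livers. All 5 tested neutrophil markers of 9 were higher in NFATc3-MKO, among them S100a9 at 10.5 ± 8.42 against 1.02 ± 0.588 CPM (log2 fold change 3.35 ± 0.68, edgeR adjusted p = 0.00475). The 9 markers summed to 8.08 to 46.8 CPM in NFATc3-MKO and to 1.82 to 5.14 CPM in ASK1-MKO livers, with the granule gene Camp at 0 in ASK1-MKO and at 0.0185 CPM in NFATc3-MKO. Of 6 markers of lipid-associated macrophages 5 were higher, including Spp1 and Trem2, and the list summed to 226 to 1120 CPM against 156 to 254 CPM. Of 6 monocyte markers Chil3 and S100a4 were higher, and of 6 macrophage markers only Lyz2 was called. The bile duct markers Tspan8 and Epcam, Jchain and the Kupffer cell marker Marco were higher, and the Kupffer cell marker C6 and Hnf4a were lower. The bile duct markers summed to 3.29 to 11.6 CPM in ASK1-MKO livers. None of the 9 T and NK cell markers was called, and they summed to 3.93 to 12.8 CPM against 3.9 to 5.77 CPM. The part of these cell types in the differences of the 8 called chemokine genes was not tested. With NFATc3-MKO replicate 2 and Lyz2-Cre replicate 2 both left out, an alternative chosen after seeing the data, 4 chemokine genes were called in this comparison, 3 of them among the 8.

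**Figure D3:**
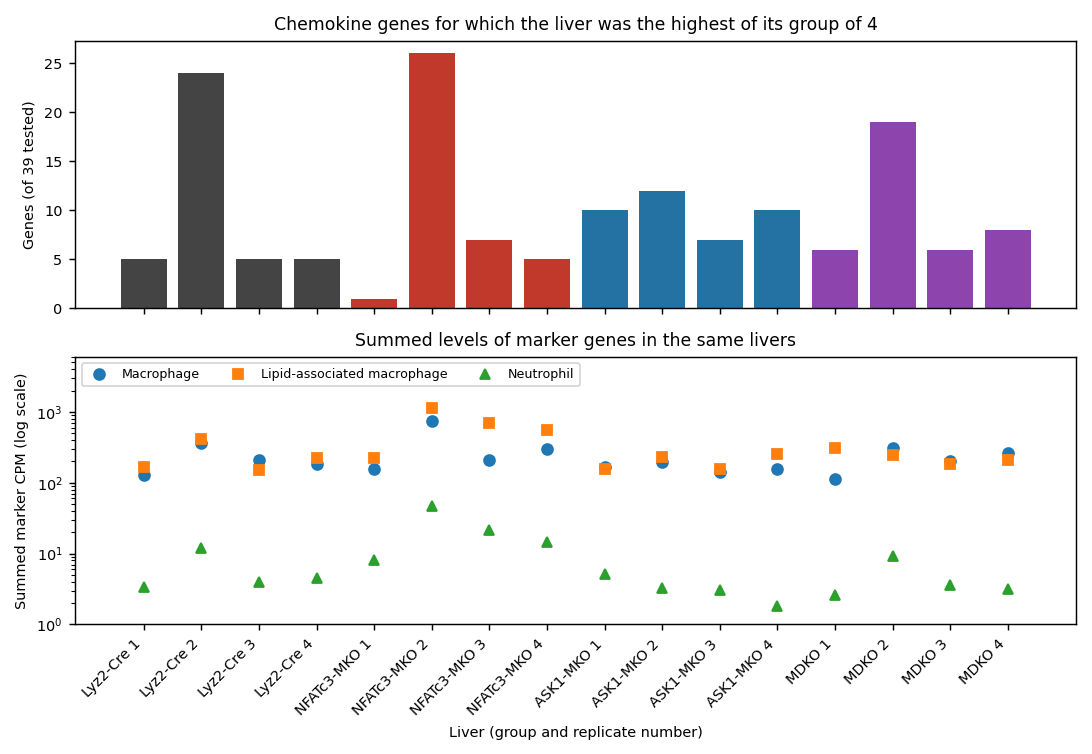
Upper panel, number of the 39 tested chemokine genes for which each liver was the highest of its group of 4, with bars from 0. Lower panel, summed CPM of 6 macrophage, 6 lipid-associated macrophage and 9 neutrophil marker genes in the same livers on a logarithmic axis. The livers numbered 2 of NFATc3-MKO, Lyz2-Cre and MDKO have the tallest bars (26, 24 and 19 genes) and the highest macrophage sums of their groups.

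Few of the genes that act with the chemokine system were called in the livers. Of 38 genes of signalling below chemokine receptors 37 were tested, and in NFATc3-MKO against ASK1-MKO only Plcb3, a phospholipase, was called (8.52 ± 1.07 against 11.9 ± 1.71 CPM, log2 fold change −0.48 ± 0.13, edgeR adjusted p = 0.0196). Of 9 other chemoattractant receptors Ptafr, the receptor for platelet-activating factor, was higher (1.67 ± 0.49, edgeR adjusted p = 0.0335). Against Lyz2-Cre, S1pr1, the receptor for sphingosine-1-phosphate that guides lymphocyte exit, was lower in NFATc3-MKO (19.1 ± 3.95 against 46.2 ± 12.3 CPM, edgeR adjusted p = 0.00321) and in ASK1-MKO livers (20.1 ± 2.46 CPM, 0.00199). MDKO livers held 47.3 ± 8.91 CPM of S1pr1, near the Lyz2-Cre level. This was higher than in NFATc3-MKO (edgeR adjusted p = 0.00287) and in ASK1-MKO livers (0.00174). Of 16 cytokine and transcription factor genes upstream of chemokine genes 14 were tested, of which Irf1 was higher and Irf7 lower. Against Lyz2-Cre livers, none of these 14 was called in any of the 3 knockout groups.

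In the cultures labelled NFATc3-MKI most of the tested ligand genes were higher than in their controls. Of 17 tested chemokine genes 10 were higher and 1 lower, where 33.3% of all tested genes were called, 16.5% higher and 16.8% lower. All 10 were ligands, of 13 tested, and none of the 4 tested receptors was called. The filter on low counts keeps a gene that is high enough in either group. Genes very low in the controls, among them Ccl2, Ccl7 and Cxcl11, were thus tested through their NFATc3-MKI levels. Their direction was favoured by the filter, so the count of higher genes is not evidence of direction for them. The median log2 difference of the 17, these genes included, was 1.25, against 0.00 for all tested genes. The other 44 genes of the family stood at 1.95 CPM or less in both groups.

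The inflammatory CC ligands rose together. Ccl3, the most abundant, stood at 1613, 1496 and 1324 CPM in the 3 controls and at 3095, 3711 and 3120 CPM in the 3 NFATc3-MKI cultures (log2 fold change 1.16 ± 0.10, edgeR adjusted p = 5.68e-09). Ccl4, its neighbour on chromosome 11, rose from 211, 186 and 164 to 483, 533 and 465 CPM (1.40 ± 0.10, 7.76e-11). Ccl9 rose from 487, 497 and 436 to 1016, 1208 and 1151 CPM (1.25 ± 0.09, edgeR adjusted p = 4.3e-10). For these 3 genes the highest control lay well below the lowest NFATc3-MKI culture. Ccl5 rose from 35.7 ± 1.98 to 84.7 ± 9.87 CPM (SD, n = 3, log2 fold change 1.25 ± 0.10).

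The largest fold changes belonged to the CCR2 ligands, which started from very low levels. Ccl2 and Ccl7 were tested through their NFATc3-MKI levels, as given above, so their rank by fold change was favoured by the filter. Ccl2 stood at 0.666, 0.233 and 0.589 CPM in the controls, a total of 12 counts, and at 14.4, 14.4 and 17.7 CPM in NFATc3-MKI cultures (log2 fold change 4.95 ± 0.30, edgeR adjusted p = 1.18e-11). Ccl7 had no count in the controls and stood at 1.19, 1.62 and 1.39 CPM in NFATc3-MKI cultures, at least 11.5-fold higher when the controls are set at the limit of 3 counts over the group (edgeR adjusted p = 6.27e-05). Ccl22 rose from 1.13 ± 0.251 to 3.04 ± 0.129 CPM (1.41 ± 0.35). Ccr2, the receptor of CCL2 and CCL7, was too low to be tested in these cultures.

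Of the CXC ligands, Cxcl2, which acts on CXCR2, stood at 141, 132 and 117 CPM in the controls and at 326, 369 and 363 CPM in NFATc3-MKI cultures (log2 fold change 1.44 ± 0.09, edgeR adjusted p = 2.5e-11). Cxcl1 and Cxcl3, whose promoters are shown above beside that of Cxcl2, were too low to be tested here, with no count of Cxcl1 in any of the 6 cultures and 1 count of Cxcl3 in the controls and 3 in NFATc3-MKI. The CXCR3 ligands Cxcl10, at 12.3, 8.26 and 9.3 against 22.4, 27.9 and 30 CPM (1.44 ± 0.16, edgeR adjusted p = 2.57e-07), and Cxcl11, at 0.557 ± 0.252 against 1.94 ± 0.934 CPM (1.77 ± 0.50, 0.00794), were higher, and the third CXCR3 ligand, Cxcl9, had 1 count in each group. The Cxcl11 call was lost without NFATc3-MKI replicate 2 (edgeR adjusted p = 0.0745). Cxcl16, a transmembrane chemokine and scavenger receptor, was the gene that fell, from 13, 15.7 and 15 to 9.54, 10.4 and 8.55 CPM (−0.61 ± 0.16, edgeR adjusted p = 0.00551). Its exons share 552 bases with Zmynd15 on the other strand, and those of Cxcl10 share 133 with Art3, so that reads of such partners may not have been told apart.

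The uncalled genes were Cxcl14, Ccl25, Ackr4 and the receptors Cxcr4, Cx3cr1 and Ccr10, with log2 differences of −0.58 to 0.28 and edgeR adjusted p of 0.136 or more. Cx3cr1 stood at 24.1, 11.4 and 15.8 CPM in the controls and at 14.7, 15.6 and 9.94 CPM in NFATc3-MKI cultures, with overlapping groups. Marker genes of the macrophage list moved as well: Fcgr1, Csf1r, Cd68 and Lyz2 of 5 tested were higher, and the list summed to 1430 to 1528 CPM in the controls and 1800 to 1974 CPM in NFATc3-MKI. The 6 lipid-associated macrophage markers summed to 5348 to 6014 CPM in the controls and 18480 to 23140 CPM in NFATc3-MKI, mostly Spp1. None of the Kupffer cell markers could be tested, with Clec4f and Timd4 at 0. The neutrophil genes S100a8, S100a9 and Ngp had no count in this set, and the 9 neutrophil markers summed to 8.52 to 11.9 CPM in the controls and 14.7 to 17 CPM in NFATc3-MKI, mostly Csf3r, which was called higher. The part of these markers in the result was not tested.

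**Figure D4:**
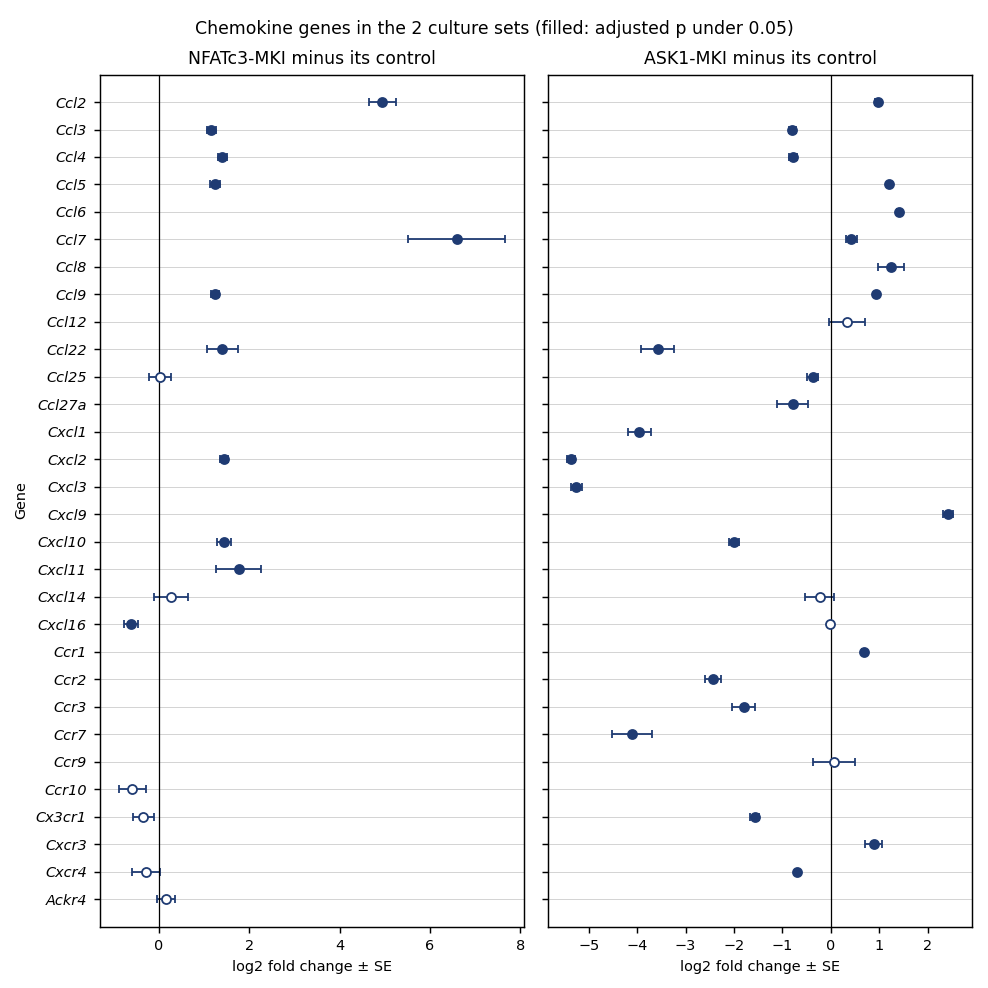
Log2 fold change with its SE of chemokine genes tested in the NFATc3-MKI set (left, 17 genes) and the ASK1-MKI set (right, 27 of the 28 tested genes), each against its own 3 controls, with filled points for an adjusted p under 0.05 and the 2 panels on scales of their own. On the left 10 of 11 filled points lie above 0, of which that of Ccl7 is a fitted value that depends on the prior count, since its controls had no count. Ccl2, Ccl7 and Cxcl11 were tested through their NFATc3-MKI levels, which favours this direction. On the right Cxcl1, Cxcl2, Cxcl3, Ccr7 and Ccl22 lie at −3.58 or below.

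Cultures labelled ASK1-MKI differed from their controls in both directions. Of 28 tested chemokine genes 9 were higher and 15 lower, where 49.1% of all tested genes were called, 24.6% higher and 24.5% lower. Of 19 tested ligands 7 were higher and 9 lower, and of 9 tested receptors 2 were higher and 6 lower. Here too some genes passed the filter through 1 group only, among them Cxcl1, Ccl22 and Ccr7 through the controls, which favours their direction. The coefficient of variation that edgeR names biological was 0.0214 in this set, against 0.0892 in the NFATc3-MKI set. Squared differences between 2 cultures of a group averaged 1.59 to 1.99 times those of counting noise alone. In the NFATc3-MKI set they averaged 2.82 to 8.94 times. A spread this small may be technical, and the small p-values of the ASK1-MKI set rest on it. The median log2 difference of the 28 was −0.54, against 0.00 for all tested genes.

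Cxcl2 and Cxcl3, which encode CXCR2 ligands, fell most, and Cxcl1 fell as well. Cxcl5, which encodes another, was too low to be tested, at 0.424 ± 0.129 CPM in the controls and 1.07 ± 0.594 CPM in ASK1-MKI cultures (SD, n = 3). Cxcl2 stood at 99.3, 94.4 and 106 CPM in the 3 controls and at 2.01, 2.55 and 2.68 CPM in the 3 ASK1-MKI cultures (log2 fold change −5.37 ± 0.08, edgeR adjusted p = 1.43e-94). Cxcl3 fell from 53.2, 47.1 and 54.5 to 1.76, 1.5 and 0.775 CPM (−5.26 ± 0.11, 1.2e-69), and Cxcl1 from 5.68, 8.13 and 7.86 to 0.502, 0.463 and 0.417 CPM (−3.95 ± 0.24, 1.24e-31). These 3 genes are the neighbours on chromosome 5 whose promoter windows each hold a κB-type match. Pf4, a platelet-type CXC chemokine named outside the symbol rule, also fell, from 93.5 ± 5.4 to 15.4 ± 0.705 CPM (SD, n = 3, log2 fold change −2.60 ± 0.06), and the related Ppbp rose (0.66 ± 0.24, edgeR adjusted p = 0.0176).

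The CXCR3 ligands moved apart. Cxcl9 rose from 5.4, 3.69 and 4.94 CPM in the controls to 24.2, 24.5 and 26.7 CPM in ASK1-MKI cultures (log2 fold change 2.42 ± 0.10, edgeR adjusted p = 1.65e-46). Cxcl10, its neighbour, fell from 21, 20.8 and 21.1 to 5.59, 5.56 and 4.47 CPM (−2.01 ± 0.10, 2.03e-38). No culture of one group reached the range of the other for either gene. Cxcr3, their receptor, stood at 2.43 ± 0.298 in the controls and rose to 4.47 ± 0.337 CPM (0.88 ± 0.18). Cxcl16, called lower in the other set, stood at 230 ± 11.4 and 228 ± 8.07 CPM and was not called.

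The CC ligands divided too. Ccl5, the most abundant, rose from 660, 670 and 715 to 1604, 1618 and 1495 CPM (log2 fold change 1.21 ± 0.04, edgeR adjusted p = 2.05e-09). Ccl6 rose from 67.1 ± 0.821 to 178 ± 3.38 CPM (1.41 ± 0.03), Ccl9 from 132 ± 3.48 to 254 ± 2.16 CPM (0.94 ± 0.03) and Ccl2 from 37.2, 37.4 and 39.7 to 73.4, 75.3 and 74.4 CPM (0.96 ± 0.05, 6.44e-40). Ccl8 rose from 0.978 ± 0.318 to 2.35 ± 0.258 CPM and Ccl7 from 7.54 ± 1.42 to 10.2 ± 0.586 CPM, the latter with a call that was lost without control replicate 2 (log2 fold change 0.42 with all cultures and 0.28 without it, edgeR adjusted p = 0.0505). In contrast Ccl3 fell from 31, 33 and 33.8 to 19.1, 20.3 and 17 CPM (−0.79 ± 0.07) and Ccl4 from 23.2, 21.3 and 27.4 to 15, 11.8 and 15 CPM (−0.79 ± 0.09). Ccl22 fell from 2.64, 3 and 3.88 to 0.565, 0.174 and 0.0596 CPM (−3.58 ± 0.35, edgeR adjusted p = 5.59e-17). Ccl25 (−0.38) and Ccl27a (−0.79), which share exon bases with genes on the other strand, fell as well, and both lost their call with DESeq2 (DESeq2 adjusted p = 0.0564 and 0.146), Ccl27a also when replicate 1 or 2 of either group was left out (edgeR adjusted p = 0.0647 to 0.125).

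Receptor genes were mostly lower in ASK1-MKI cultures. Ccr2, the receptor of the CCL2 that rose, fell from 10.8, 9.45 and 9.08 to 1.63, 1.5 and 2.26 CPM (log2 fold change −2.44 ± 0.16, edgeR adjusted p = 7.6e-29). Ccr7, which marks activated dendritic cells and macrophages, fell from 2.36, 2.65 and 2.55 to 0.0628, 0.289 and 0.0596 CPM (−4.10 ± 0.41, 1.52e-16), a total of 7 counts. Cx3cr1 fell from 24.6, 25 and 26.8 to 9.23, 8.91 and 7.57 CPM (−1.57 ± 0.09). The abundant Cxcr4 fell from 207, 210 and 217.5 to 129, 135 and 129 CPM (−0.69 ± 0.03). Ccr3 fell as well (−1.80 ± 0.24). Ccr1 went the other way, from 59.5, 58.9 and 62.3 to 92.3, 101 and 97.2 CPM (0.68 ± 0.04, edgeR adjusted p = 3.94e-32). Ccrl2, an atypical chemokine-binding receptor outside the symbol rule, fell from 71.1 ± 1.54 to 33.5 ± 2.29 CPM (−1.09 ± 0.05). Ackr4, at 0.355 and 0.101 CPM, and the other atypical receptors were too low to be tested.

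**Figure D5:**
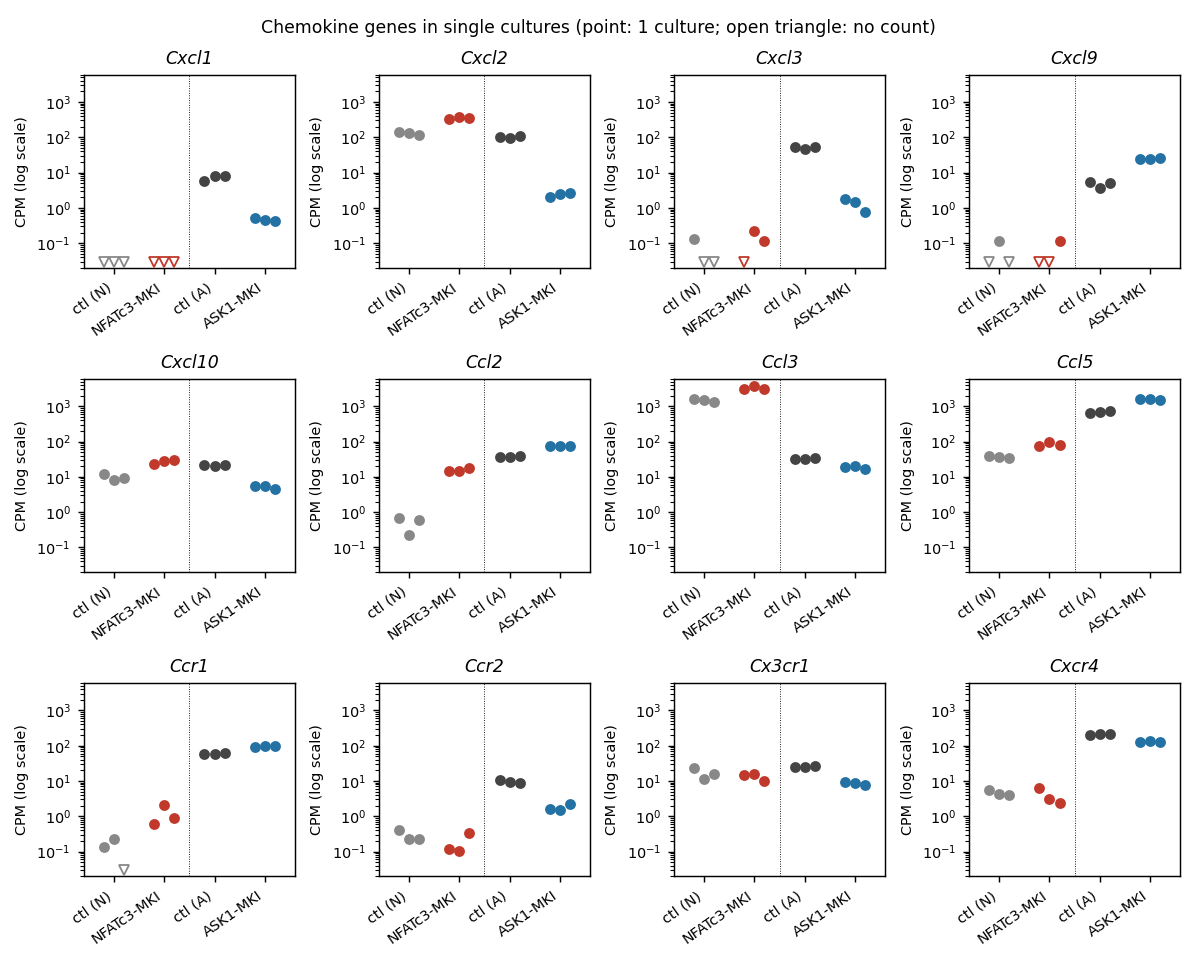
Level of 12 chemokine genes in each of the 12 cultures in CPM on logarithmic axes, with open triangles for cultures without a count and a dotted line between the 2 sets, in which ctl (N) and ctl (A) are the controls for NFATc3-MKI and ASK1-MKI. Cxcl1, Cxcl2 and Cxcl3 are lower in ASK1-MKI than in its controls, Cxcl9 is higher and Cxcl10 lower, and Ccl2 and Ccl5 are higher in both knock-in groups than in their own controls.

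Markers of other cell types moved with the ASK1-MKI comparison. Of 9 neutrophil markers 6 were tested and 5 were lower, Mmp8, Mmp9, S100a8, S100a9 and Ngp, and the list summed to 1219 to 1273 CPM in the controls and 288 to 301 CPM in ASK1-MKI, with Ly6g at 0 in the controls and 0.019 CPM in ASK1-MKI. Of the 5 B and plasma cell markers measured, 4 were lower and Jchain was higher, and they summed to 11.7 to 13.8 CPM and 8.22 to 9.9 CPM. Of 3 tested Kupffer cell markers Marco, Cd5l and Vsig4 were lower, and the list summed to 879 to 903 CPM and 288 to 307 CPM. Of 6 macrophage markers 4 were higher and Csf1r was lower. The 6 dendritic cell markers summed to 2.19 to 2.42 CPM and 1 to 1.27 CPM. The part of these cells in the changes of the chemokine genes was not tested.

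Of the 14 chemokine genes tested in both culture sets 10 were called in the NFATc3-MKI set, 12 in the ASK1-MKI set and 9 in both. The 9 are 81.8% of all calls in the NFATc3-MKI set and 37.5% of all calls in the ASK1-MKI set. Those totals include genes that were not tested in the other set. The 9 are 64.3% of the 14, and of all 10064 genes tested in both sets, matched by Ensembl gene ID, 21.2% were called in both. Ccl2 and Ccl7 passed the filter in the NFATc3-MKI set through their NFATc3-MKI levels, and Ccl22 in the ASK1-MKI set through its controls. The filter favoured their calls and directions, so the 64.3% is not evidence of a shared change in the family. Ccl2, Ccl5, Ccl7 and Ccl9 were higher in both knock-in groups. Ccl3, Ccl4, Ccl22, Cxcl2 and Cxcl10 were higher in NFATc3-MKI and lower in ASK1-MKI than in their own controls. The 2 sets share no control and are held in separate tables, so the difference between their changes was not tested. The levels also started apart, as Ccl3 stood at 1478 ± 145 CPM in the control for NFATc3-MKI and at 32.6 ± 1.46 CPM in the control for ASK1-MKI, and Ccl2 at 0.496 ± 0.231 and 38.1 ± 1.4 CPM (SD, n = 3).

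The regulators upstream of chemokine genes changed in the same 2 sets. In NFATc3-MKI cultures 8 of 15 tested were higher and 2 lower, where 16.5% of all tested genes were higher and 16.8% lower. The higher ones included Tnf, from 266 ± 5.12 to 452 ± 31.3 CPM (log2 fold change 0.77 ± 0.08), Il6, from 0.49 ± 0.126 to 6.02 ± 1.21 CPM (3.59 ± 0.37), and Il1b (2.84 ± 0.35), all cytokine genes. Jun and Tnfaip3 were lower. In ASK1-MKI cultures 3 of 15 were higher, among them Irf7 and Fos, and 10 lower, where 24.6% of all tested genes were higher and 24.5% lower. Il6 fell from 15.6 ± 0.996 to 0.425 ± 0.218 CPM (−5.19 ± 0.19) and Il1b from 16.8 ± 0.229 to 6.37 ± 0.423 CPM (−1.40 ± 0.10). Il6 and Il1b, at 0.49 and 0.69 CPM in the controls for NFATc3-MKI, were tested there through their NFATc3-MKI levels. In the ASK1-MKI set Il6 was tested through its controls. The filter favoured these directions. The NF-κB subunit genes Nfkb1 (−0.17), Nfkb2 (−0.28), Rela (−0.27) and Relb (−0.22) fell by small amounts. The median log2 difference of the list was 0.30 in NFATc3-MKI and −0.22 in ASK1-MKI, against 0.00 for all tested genes in each.

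More signalling genes below the receptors were called higher than lower in both sets. Of 36 tested in the NFATc3-MKI set 13 were higher and 2 lower, where 16.5% of all tested genes were higher and 16.8% lower. Of 38 in the ASK1-MKI set 24 were higher and 8 lower, where 24.6% of all tested genes were higher and 24.5% lower. The median log2 differences were 0.12 and 0.14. The Src-family kinase gene Lyn, which acts in leukocyte signalling, was higher in both, from 168 ± 7.88 to 249 ± 14.3 CPM in the NFATc3-MKI set and from 254.5 ± 2.85 to 325 ± 10.4 CPM in the ASK1-MKI set. Arrb1, which encodes a β-arrestin that uncouples receptors, was lower in NFATc3-MKI (−0.81 ± 0.09) and higher in ASK1-MKI cultures (0.13 ± 0.03). Of the other chemoattractant receptors, C3ar1 was higher in both sets. Ccrl2 was higher in NFATc3-MKI (0.82 ± 0.15, edgeR adjusted p = 0.000135) and lower in ASK1-MKI cultures, as given above.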

How the data were processed

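RNA was sequenced from 16 livers and 12 macrophage cultures, as dUTP strand-specific libraries per the labels' protocols. HISAT2 and the build mm10 are named in the submitters' processing notes. How reads were counted, and whether by strand, is not given in the sources used here. For the livers, the values the authors deposited are expected counts, 85.42% of them whole as written, and were rounded for the fit. The 2 deposited macrophage tables hold counts (all whole).

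Each table was fitted with edgeR 4.0.16 (R 4.3.3): filterByExpr, TMM scaling, robust quasi-likelihood F test, all 16 livers in 1 fit, Benjamini-Hochberg adjustment over all 13309, 13363 or 11380 genes tested, called at an adjusted p under 0.05. The SE is the log2 fold change divided by the square root of F. Log2 differences are signed as the first-named group minus the other. Levels are CPM with TMM scaling, and per kilobase over GENCODE vM21 exons. Limits for 0 use 3 counts over a group. The script was tested on simulated data.

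Members and lists were chosen with earlier results of these data known. Genes named are those called, the 8 highest per table, the 3 smallest p per comparison, those found in livers but not in cultures, and a list of main ligands and receptors. Some genes counted here are not reported by name. As alternatives, the fits were repeated with DESeq2 1.42.0 and its size factors, a mean of at least 1 CPM or no filter at all, the replicate number as a block, only 2 groups, and each library left out. Same-numbered livers of MDKO and Lyz2-Cre deviated together (correlations of 0.233 to 0.544). Their numbers may thus pair them, although the labels name no pairing. With the block, 0 chemokine genes were called there too.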

Additional observations from a re-analysis of the deposited data

Results flagged for a closer look

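Of 124 groups of 4 livers examined over 31 chemokine genes, 17 held 1 liver far from the other 3, where chance gives about 1 in 20. A liver counted as far when its gap to the nearest other liver, divided by the range of the group, lay above Dixon's 95% critical value. That value assumes normally distributed values, and CPM were used untransformed, some at few counts. The 17 are thus not shown to exceed chance. The groups of different genes share the same livers and are not independent. In Lyz2-Cre replicate 2 these were Ccl2 (7.39 CPM), Cxcl1 (10.5), Cxcl5 (0.892), Ccr1 (2.12) and Cxcr2 (3.31). In MDKO replicate 2 they were Ccl2 (4.58 CPM), Cxcl1 (11.1), Cxcl2 (0.859) and Cxcl12, which was low there (320). In NFATc3-MKO replicate 2 they were Cxcl9 (63.7 CPM) and Ccl6 (36.5), and in NFATc3-MKO replicate 1 Ackr3 was low (0.418 CPM). MDKO replicate 3, the library of the lowest depth, was low for Ackr4 (0.461 CPM), Ccl21a (0.806) and Ccl7 (0, no count). Ccr7 was high in ASK1-MKO replicate 4 (1.58 CPM) and Cxcl2 in ASK1-MKO replicate 1 (0.302 CPM).

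The effects of NFATc3-MKO and ASK1-MKO on the shared Lyz2-Cre livers differed for 8 genes by the test of the difference itself, where the log2 difference between NFATc3-MKO and ASK1-MKO was 1.46 for Cxcl14, 2.70 for Ccr1, 4.72 for Cxcl5, 2.75 for Ccl7, 2.28 for Ccl2, 1.63 for Ccr2, 1.57 for Ccl22 and −0.37 for Ccl9. This test is the comparison of the single knockouts given above. Of the 8 calls only that of Cxcl14 held whichever single liver was left out. Cxcl14 was also the only 1 of the 8 called against Lyz2-Cre livers, in NFATc3-MKO. Between MDKO and NFATc3-MKO the log2 difference was −1.05 for Cxcl14 and 2.22 for Ccr3, and both calls were lost when some single livers were left out.

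In the cultures 5 genes moved in opposite directions in the NFATc3-MKI and ASK1-MKI sets, and the difference was not tested. The log2 fold changes were 1.44 and −5.37 for Cxcl2, 1.44 and −2.01 for Cxcl10, 1.41 and −3.58 for Ccl22, 1.16 and −0.79 for Ccl3, and 1.40 and −0.79 for Ccl4. Ccl22 passed the filter in the ASK1-MKI set through its controls, which favours its direction there.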

How the results depend on the processing

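Counts of called chemokine genes in the livers moved with the processing, and the cause was not tested. NFATc3-MKO against Lyz2-Cre gave 1 call, 2 with DESeq2, 2 with the replicate block, 0 with only the 2 groups, and 0 to 6 with 1 liver left out (6 without Lyz2-Cre replicate 2, 5 without NFATc3-MKO replicate 1). ASK1-MKO against Lyz2-Cre gave 0 to 1 with 1 liver left out (1 without ASK1-MKO replicate 1). NFATc3-MKO against ASK1-MKO gave 8 calls, 12 with DESeq2, 5 at a mean of at least 1 CPM, 2 with only the 2 groups, and 1 to 15 with 1 liver left out (1 without ASK1-MKO replicate 2, 15 without NFATc3-MKO replicate 1). MDKO against NFATc3-MKO gave 2 calls, 1 at a mean of at least 1 CPM, 0 with only the 2 groups, and 0 to 10 with 1 liver left out (10 without NFATc3-MKO replicate 1). MDKO against ASK1-MKO gave 0 calls, 1 with DESeq2 (Ccl9), 2 with only the 2 groups and 0 to 1 with 1 liver left out. With replicate 2 of both NFATc3-MKO and Lyz2-Cre left out, chosen after seeing the data, the calls were 0 for NFATc3-MKO against Lyz2-Cre, 4 for NFATc3-MKO against ASK1-MKO and 1 for MDKO against ASK1-MKO. The log2 difference of Cxcl13 between MDKO and Lyz2-Cre ran from −0.0595 (without MDKO replicate 2, a reversed sign) to 1.33. In the cultures the counts stayed within 10 to 13 around 11 for NFATc3-MKI and 23 to 27 around 24 for ASK1-MKI.

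The replicate number may pair MDKO with Lyz2-Cre livers, where the replicate block left 0 calls. Same-numbered livers of other groups gave mixed correlations. Those of NFATc3-MKO and Lyz2-Cre were 0.562 at replicate 2 and −0.209 at replicate 3. Whether the numbers pair such livers is not known. The block gave 2 calls for NFATc3-MKO against Lyz2-Cre, 5 for MDKO against NFATc3-MKO and 1 for MDKO against ASK1-MKO. It gave 8 for NFATc3-MKO against ASK1-MKO, of which 6 were among the 8 called without it. Depth limits the livers most in MDKO replicate 3, and genes under the limits for a count of 0 could not be compared.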
